A study of Mus musculus with 12 samples.

Results

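The MYC network of mouse splenic B cells was described here through 9 genes, chosen by name as the MYC proteins, their partner MAX and the proteins that compete with MYC for it or dimerise beside it. They were Myc, Mycn, Max, Mxd1, Mxd3, Mxd4, Mxi1, Mnt and Mlx, 9 of 59762 genes with values in any of the 3 count tables. Of these, 8 had enough counts to be tested in every comparison, and Mycn did not.

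B cells had been purified from spleen by removing CD43-bearing cells with magnetic beads, and their poly(A) RNA was sequenced. In the double knockout (DKO) mice, Cre-loxP recombination had removed Hnrnpa1 and Hnrnpa2b1, which encode splicing regulators of the hnRNP family, and the labels do not name the driver of Cre. The question of the series is what the pair does in germinal centre B cells. The groups were 2 DKO and 2 wild-type (WT) libraries of cells stimulated for 48 h with 10 µg/mL anti-IgM and 1 µg/mL anti-CD40, 3 DKO libraries of untreated cells, 2 additional WT libraries of untreated cells with titles of their own, and 3 numbered WT libraries of untreated cells. One stimulated WT column could not be tied to a replicate number, and its library is called unnumbered. Whether each replicate is another animal is not stated in the labels, and the p-values cover no more than the spread among these libraries.

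Library totals lay between 15090953 and 21731893 counts. By Xist and Y-linked transcripts, 2 of the 12 libraries read as female, both among the 6 untreated DKO and numbered WT libraries. The 5 DKO libraries kept 11.2% to 29.0% of the WT mean of Hnrnpa1 and 18.5% to 34.1% of that of Hnrnpa2b1, with the highest share of both in untreated DKO library 2. In CPM, which is counts scaled to a common library size, the 7 B cell markers summed to 7038 to 8379 in stimulated DKO libraries, against 9061 to 9183 in stimulated WT libraries, and to 4453 to 4880 in untreated DKO libraries, against 5598 to 6540.2 in untreated numbered WT libraries. None was at 0, and the sums were lower in DKO without overlap in both states. Cd22 was lower in stimulated DKO cells, and Ighm and Cd22 were among the markers lower in untreated DKO cells (adjusted p of 0.00403 to 0.0171, edgeR). In bulk RNA, fewer cells of a type and less RNA per cell cannot be told apart. The 7 T cell markers summed to 133 to 190 CPM in stimulated DKO libraries, 155 to 177 CPM in stimulated WT libraries, 47.1 to 81.8 CPM in untreated DKO libraries, 124 to 130.04 CPM in the additional WT libraries and 74.0 to 97.8 CPM in untreated numbered WT libraries. Of these, Cd3e and Cd8a had 0 counts in the additional WT libraries. The 8 myeloid markers summed to 190 to 240 CPM in the additional WT libraries. The sums were 56.2 to 62.9 CPM in stimulated DKO libraries and 65.3 to 73.4 CPM in stimulated WT libraries. In untreated cells they were 38.6 to 70.8 CPM in DKO libraries and 64.6 to 72.7 CPM in numbered WT libraries. Adgre1 alone was called, lower in DKO in stimulated and untreated cells (adjusted p = 0.0406 and 0.00469, edgeR). That is 1 of 4 and 1 of 5 tested, against 6.17% and 10.6% of all tested genes. The part of these markers in the results was not tested.

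MYC is a transcription factor that binds DNA as a dimer with MAX, mostly at E-box motifs, and raises transcription of genes for ribosome production, nucleotide synthesis and growth. The MXD proteins (MXD1, MXD3, MXD4 and MXI1) and MNT also pair with MAX, bind the same motifs and recruit the SIN3 and histone deacetylase co-repressors. MLX is a MAX-like partner that pairs with MXD1, MXD4 and MNT and with the glucose-responsive factors of the MLXIP family. In B cells, antigen receptor and CD40 signals are known to induce Myc, and its level bears on how far a germinal centre B cell divides.

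The E-box CACGTG, which reads the same on both strands, was looked for in the RefSeq promoters of the network (build GRCm38.p6, 250 bases before to 50 bases after each start). Entries existed for 8 members in 10 windows, Mxi1 having 3. The motif was in the windows of 4 members, or 40.0% of windows, against 7.15% of 32851 promoters overall. The 4 stretches are shown on each gene's strand because they hold the network's own DNA motif within its genes, with the E-box in capitals.
Mxd4, chr5:34187904-34187949, minus strand: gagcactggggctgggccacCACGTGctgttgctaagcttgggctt
Mnt, chr11:74830781-74830826, plus strand: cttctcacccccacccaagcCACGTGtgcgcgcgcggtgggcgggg
Mlx, chr11:101087230-101087275, plus strand: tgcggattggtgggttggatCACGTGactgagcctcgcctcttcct
Max, chr12:76962226-76962271, minus strand: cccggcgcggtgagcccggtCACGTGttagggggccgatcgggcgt
The motif ended 213 bases before the start of Mxd4, 117 before that of Mnt and 34 before that of Mlx, and it spanned the start of Max. A match describes the letters and not binding. No match was in the windows of Mycn, Mxd1, Mxd3 and Mxi1.

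In stimulated cells, Myc was higher in DKO than in WT and Mxd4 was lower, while Max, the other repressor partners and Mlx did not pass the test. Myc (ENSMUSG00000022346, GRCm39 chr15:61857240-61862223) stood at 424 and 322 CPM in DKO libraries 1 and 2, against 181 CPM in WT library 1 and 160.4 CPM in the unnumbered WT library. Both DKO libraries lay above both WT libraries, with a wide gap. The fold was 2.11, a log2 fold change of 1.08 ± 0.19 (SE, adjusted p = 0.0122, edgeR quasi-likelihood test). CPM values used library totals and TMM factors for that scaling, and every log2 fold change is tested over all genes with Benjamini-Hochberg adjustment and a threshold of 0.05.

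Mxd4 (ENSMUSG00000037235, chr5:34331227-34345064), a MAX partner associated with cells leaving the cycle, stood at 60.9 and 58.5 CPM in DKO libraries 1 and 2, against 103 CPM in WT library 1 and 126 CPM in the unnumbered WT library. The DKO libraries were close together and both well below the WT libraries. Its log2 fold change was -0.98 ± 0.18 (adjusted p = 0.0130, edgeR), so the WT level was 1.98-fold the DKO level. Mxi1 (ENSMUSG00000025025, chr19:53298949-53364241), another MAX partner, had 28.8 and 24.2 CPM in DKO libraries 1 and 2, against 11.9 CPM in WT library 1 and 19.3 CPM in the unnumbered WT library. These groups did not overlap either, but the log2 fold change of 0.71 ± 0.24 missed the threshold (adjusted p = 0.0854, edgeR). It passed without DKO library 1, DKO library 2 or the unnumbered WT library (adjusted p of 0.00326 to 0.0417, edgeR).

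Mxd3 (ENSMUSG00000021485, chr13:55472981-55477636), the MXD family member known for its expression in S phase, had 11.6 and 6.13 CPM in stimulated DKO libraries 1 and 2, against 6.82 CPM in WT library 1 and 4.53 CPM in the unnumbered WT library. The groups overlapped, and the log2 fold change of 0.59 ± 0.33 did not pass (adjusted p = 0.263, edgeR), though it passed without DKO library 2 (0.98, adjusted p = 0.00387, edgeR). Max (ENSMUSG00000059436, chr12:76984043-77008975), the shared dimer partner, had 127 and 107 CPM in DKO libraries, against 107 and 97.7 CPM in WT libraries. Its log2 fold change was 0.14 ± 0.17 (adjusted p = 0.605, edgeR). The libraries did not overlap, by a margin far smaller than the spread within either genotype.

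Mxd1 (ENSMUSG00000001156, chr6:86624024-86646143), the MXD protein known for its rise as cells differentiate, had 10.7 and 10.4 CPM in stimulated DKO libraries, against 9.59 and 13.6 CPM in WT libraries. Mnt (ENSMUSG00000000282, chr11:74721746-74736551), the broadly expressed MAX-binding repressor, had 38.0 and 31.0 CPM in DKO libraries, against 33.8 and 27.1 CPM in WT libraries. Mlx (ENSMUSG00000017801, chr11:100978103-100983033) had 36.9 and 28.3 CPM in DKO libraries, against 33.5 and 28.2 CPM in WT libraries. The genotypes overlapped for all 3 genes, with log2 fold changes of -0.18 ± 0.23 for Mxd1, 0.13 ± 0.18 for Mnt and 0.03 ± 0.18 for Mlx. Mycn (ENSMUSG00000037169, chr12:12986094-12991915), the MYC relative of neural and early lymphoid cells, had 0 to 3 counts in every library of the series and was not detectable above that at this depth.

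**Figure D1:**
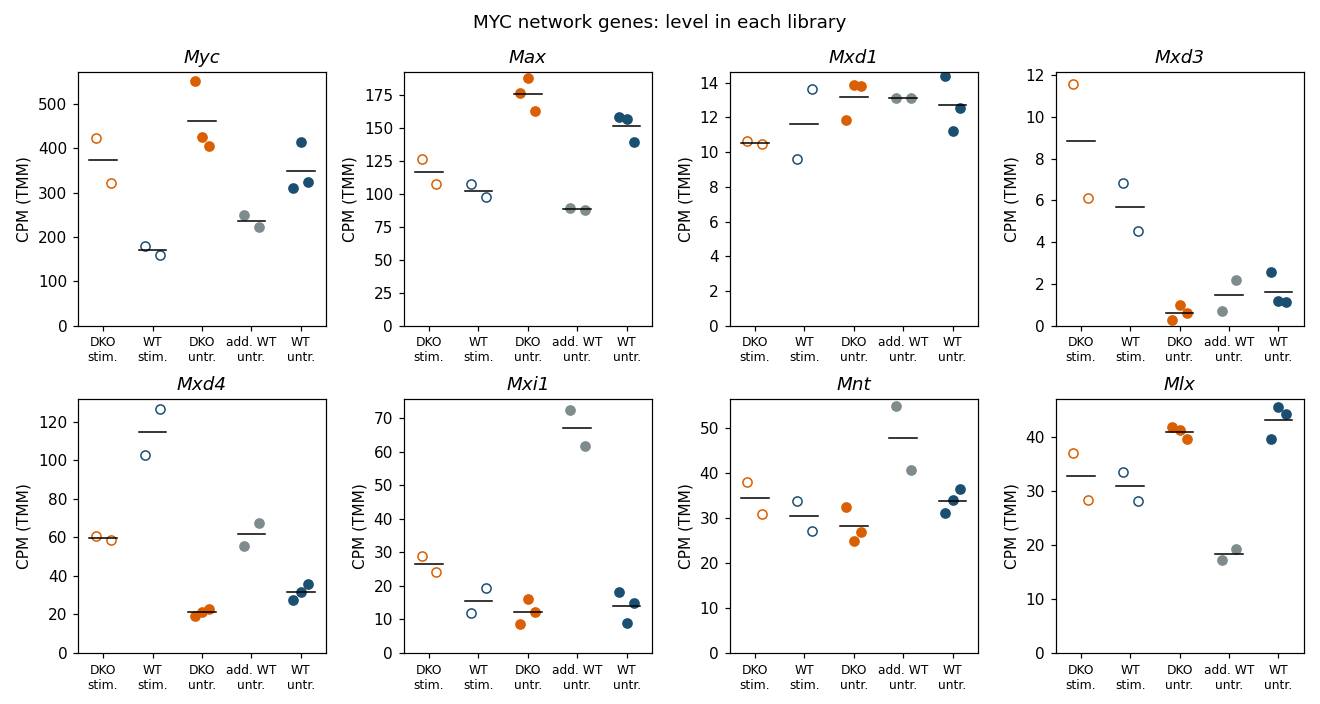
Level in CPM of each tested member (1 panel each, axis from 0) in stimulated DKO and WT libraries (open circles) and in untreated DKO, additional WT and numbered WT libraries (filled circles), where each circle is a library and each bar a group mean. Myc of both stimulated DKO libraries (424 and 322 CPM) lies above both stimulated WT libraries, and Mxd4 of DKO lies below that of WT in both states.

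Thus 1 of 8 tested members was higher and 1 was lower in stimulated DKO cells. Over all 14430 genes tested, 5.09% were higher and 6.17% were lower in stimulated DKO cells, so a count of 1 of 8 in either direction says little about the network as a set. The Myc call was lost without WT library 1 (adjusted p = 0.0547, edgeR) or the unnumbered WT library (adjusted p = 0.140, edgeR), and that of Mxd4 without the unnumbered WT library (adjusted p = 0.179, edgeR). With 2 libraries a group, the fit has 2 residual degrees of freedom.

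In untreated cells, Mxd4 was again lower in DKO, and no other member passed. Mxd4 had 19.3, 21.5 and 22.7 CPM in DKO libraries 1 to 3, against 27.4, 31.7 and 35.8 CPM in WT libraries 1 to 3. Every DKO library lay below every numbered WT library, and the log2 fold change was -0.59 ± 0.12 (adjusted p = 0.0127, edgeR). The call was lost without WT library 3 (adjusted p = 0.0619, edgeR), and once the additional WT libraries joined the WT group (log2 fold change -1.05, adjusted p = 0.102, edgeR).

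Myc had 553, 425 and 405 CPM in untreated DKO libraries 1 to 3, against 310.3, 415 and 325 CPM in WT libraries 1 to 3. DKO library 1 stood above the rest, and WT library 2 lay within the DKO range. The log2 fold change of 0.39 ± 0.14 missed the threshold (adjusted p = 0.0834, edgeR). Without WT library 2, 1 of the 2 libraries whose Xist and Y-linked transcripts read as female, it passed (adjusted p = 0.0261, edgeR), and likewise with a term for sex (adjusted p = 0.000641, edgeR), with DESeq2 (adjusted p = 0.0421) and with no filter on low counts (adjusted p = 0.0109, edgeR).

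Max had 177, 188 and 163 CPM in untreated DKO libraries 1 to 3, against 158, 157 and 139.7 CPM in WT libraries 1 to 3. The groups did not overlap, but the difference was small, with a log2 fold change of 0.20 ± 0.08 (adjusted p = 0.121, edgeR). Mxd3 had 4, 16 and 9 counts in untreated DKO libraries 1 to 3, against 51, 20 and 23 counts in WT libraries 1 to 3. All 3 DKO libraries were lower, with a log2 fold change of -1.39 ± 0.52 that missed the threshold (adjusted p = 0.0938, edgeR). Mxd3 passed in 2 of 15 alternatives. Counts this low limit how precisely the Mxd3 fold change can be known.

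Mnt had 32.6, 25.03 and 27.0 CPM in untreated DKO libraries 1 to 3, against 31.1, 34.0 and 36.5 CPM in WT libraries 1 to 3. Mxi1 had 8.64, 16.1 and 12.3 CPM in DKO libraries 1 to 3, against 18.3, 9.02 and 14.99 CPM in WT libraries 1 to 3. Mlx had 39.6 to 41.7 CPM in DKO libraries and 39.5 to 45.5 CPM in WT libraries, and Mxd1 had 11.9 to 13.9 CPM in DKO libraries and 11.2 to 14.4 CPM in WT libraries. The groups overlapped for these 4 genes, and none of them passed, though Mnt did in 2 of 15 alternatives. Their log2 fold changes were -0.28 ± 0.12 for Mnt, -0.20 ± 0.29 for Mxi1, -0.09 ± 0.08 for Mlx and 0.04 ± 0.14 for Mxd1. In untreated DKO cells 0 of 8 members were higher and 1 was lower, where 8.81% of 13561 tested genes were higher and 10.6% were lower, which is near the background.

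The difference between the DKO effects in stimulated and in untreated cells was tested as an interaction over 10 libraries, and 0 of 8 members passed (edgeR). Over all 15006 genes tested, 0.133% had a higher and 0.00666% a lower DKO effect in stimulated cells, so few calls were made anywhere. At an unadjusted p under 0.05, 3 members remained: Mxd3 at 2.03 ± 0.67 on the log2 scale (adjusted p = 0.288), Myc at 0.73 ± 0.25 (adjusted p = 0.293) and Mxi1 at 0.96 ± 0.43 (adjusted p = 0.405, all edgeR). DESeq2 also called 0 members. The Myc interaction passed without stimulated DKO library 2 (adjusted p = 0.0444, edgeR) and all 3 passed with no filter on low counts (adjusted p of 0.00269 to 0.0214, edgeR). The larger Myc difference in stimulated cells was therefore not shown to differ from that in untreated cells, and the same holds for Mxd4, whose interaction was -0.36 ± 0.20 (adjusted p = 0.482, edgeR).

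Stimulated cells were then set against untreated cells of the same genotype. The 48 h of culture and the count table go with stimulation and cannot be told apart from it. Both libraries that read as female were untreated, and no term for sex was fitted between the states. In WT cells Mxd4 and Mxd3 were higher after stimulation, and Myc, Max and Mlx were lower. Mxd4 averaged 114 ± 16.7 CPM (SD, n = 2) in stimulated WT libraries and 31.6 ± 4.21 CPM (SD, n = 3) in untreated WT libraries, a log2 fold change of 1.86 ± 0.13 (adjusted p = 9.3e-07, edgeR). Myc averaged 170.5 ± 14.3 CPM (SD, n = 2) in stimulated WT libraries and 350.1 ± 56.8 CPM (SD, n = 3) in untreated WT libraries, a log2 fold change of -1.04 ± 0.18 (adjusted p = 0.000697, edgeR). No library of either gene crossed between the states.

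Mxd3 averaged 5.67 ± 1.62 CPM (SD, n = 2) in stimulated WT libraries and 1.63 ± 0.81 CPM (SD, n = 3) in untreated WT libraries, with a log2 fold change of 1.79 ± 0.43 (adjusted p = 0.00558, edgeR). Max, at -0.56 ± 0.12 (adjusted p = 0.00239, edgeR), and Mlx, at -0.48 ± 0.14 (adjusted p = 0.0141, edgeR), were lower in stimulated WT libraries without overlap. The Mlx call was lost without the unnumbered WT library (adjusted p = 0.159, edgeR) and that of Mxd3 without stimulated WT library 1 (adjusted p = 0.0657, edgeR). With the additional WT libraries as WT, Max at -0.28 (adjusted p = 0.496, edgeR) and Mlx at -0.08 (adjusted p = 0.904, edgeR) did not pass. Mxi1 at 0.14 ± 0.30, Mxd1 at -0.13 ± 0.18 and Mnt at -0.15 ± 0.15 did not pass.

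In DKO cells, Mxd4, Mxd3 and Mxi1 were higher after stimulation and Max was lower. Mxd4 averaged 59.7 ± 1.69 CPM (SD, n = 2) in stimulated DKO libraries and 21.1 ± 1.72 CPM (SD, n = 3) in untreated DKO libraries, with a log2 fold change of 1.498 ± 0.138 (adjusted p = 7.1e-06, edgeR). Mxd3 averaged 8.86 ± 3.86 CPM (SD, n = 2) in stimulated DKO libraries and 0.622 ± 0.376 CPM (SD, n = 3) in untreated DKO libraries, a fold of 14.1 (log2 3.82 ± 0.48, adjusted p = 8.7e-05, edgeR). All stimulated libraries lay far above all untreated ones for both genes.

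Mxi1 averaged 26.5 ± 3.31 CPM (SD, n = 2) in stimulated DKO libraries and 12.4 ± 3.75 CPM (SD, n = 3) in untreated DKO libraries, with a log2 fold change of 1.10 ± 0.30 (adjusted p = 0.0138, edgeR). This call was lost without stimulated DKO library 1 (adjusted p = 0.0747, edgeR). Max was lower in stimulated DKO libraries at -0.59 ± 0.12 on the log2 scale (adjusted p = 0.00247, edgeR). Myc averaged 373 ± 72.6 CPM (SD, n = 2) in stimulated DKO libraries and 461 ± 80.3 CPM (SD, n = 3) in untreated DKO libraries, and these groups overlapped, with a log2 fold change of -0.31 ± 0.18 that did not pass (adjusted p = 0.205, edgeR). Mlx at -0.32 ± 0.14, Mnt at 0.29 ± 0.15 and Mxd1 at -0.32 ± 0.19 did not pass either.

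**Figure D2:**
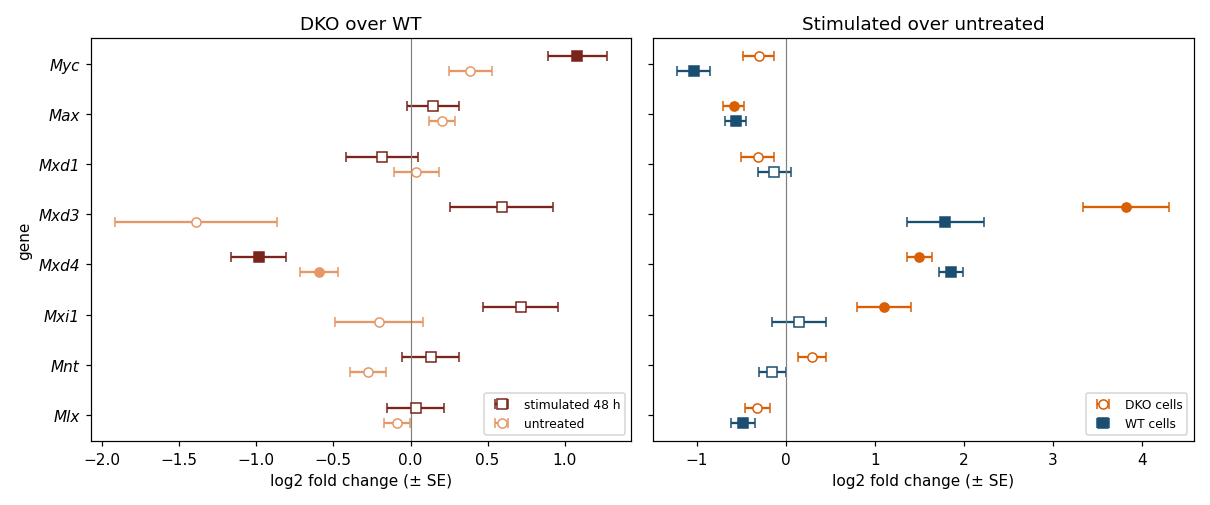
Log2 fold change with its SE (horizontal axis) of each tested member, as DKO over WT in stimulated (squares) and untreated cells (circles) on the left and as stimulated over untreated in DKO (circles) and WT cells (squares) on the right, with filled marks for adjusted p of 0.05 or less in edgeR. On the left Myc in stimulated cells (1.08) and Mxd4 in both states are filled, and on the right Mxd4 and Mxd3 are filled to the right of 0 in both genotypes.

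Among the 8 tested members, stimulation went with 3 higher and 1 lower in DKO cells, where 16.2% of all tested genes were higher and 16.8% lower. It went with 2 higher and 3 lower in WT cells, where 17.8% of all tested genes were higher and 22.8% lower. The interaction given above is the test of a difference between the genotypes in their response to stimulation.

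Mxd3 was high where cycling genes were high when the states were set side by side, as a description. The 10 cycling markers, which include Mki67 and Ccnb1, summed to 2879 and 3886 CPM in stimulated DKO libraries 1 and 2, and to 3776 and 3707 CPM in stimulated WT library 1 and the unnumbered one. They summed to 508, 893 and 965 CPM in untreated DKO libraries 1 to 3, and to 1460.4, 743 and 1163 CPM in untreated WT libraries 1 to 3. Untreated DKO library 1 was lowest and untreated WT library 1 was highest among those 6 libraries for both Mxd3 and the cycling sum. Among the 4 stimulated libraries the order was not shared either, since DKO library 1 had the highest Mxd3 level and the lowest cycling sum. For DKO against WT in untreated cells, 3 of the 10 markers (30%) were lower and 0 higher. Of all tested genes there, 10.6% were lower and 8.81% higher. The 3 were Plk1 at -1.41 ± 0.32, Ccnb1 at -1.09 ± 0.25 and Ccnb2 at -1.11 ± 0.34 (adjusted p of 0.0167 to 0.0494, edgeR). In stimulated cells 0 of 10 passed, against 5.09% higher and 6.17% lower over all tested genes. The part of cycling cells in the Mxd3 values was not tested.

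**Figure D3:**
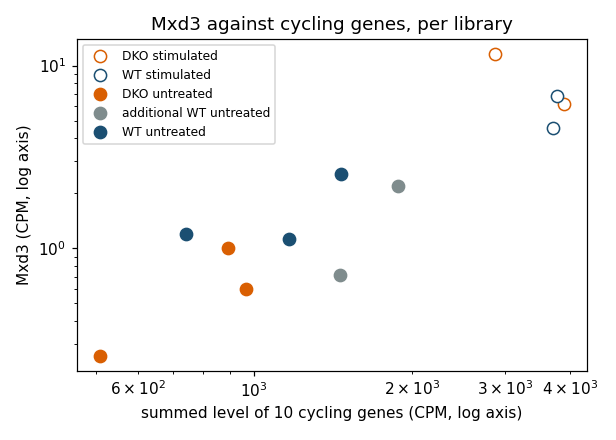
Mxd3 level (vertical, CPM, log axis) against the summed level of 10 cycling genes (horizontal, CPM, log axis), with 1 mark per library, open for stimulated and filled for untreated. The 4 stimulated libraries lie at the upper right, and untreated DKO library 1, with 508 CPM of cycling genes and 0.258 CPM of Mxd3, lies lowest.

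The balance of MYC over its antagonists was summarised as Myc CPM per kilobase of exonic length over the summed CPM per kilobase of Mxd1, Mxd3, Mxd4, Mxi1 and Mnt. This ratio was 6.00 and 5.58 in stimulated DKO libraries 1 and 2, against 2.62 in stimulated WT library 1 and 2.15 in the unnumbered WT library. It was 16.5, 12.3 and 11.9 in untreated DKO libraries 1 to 3, against 7.25, 10.5 and 7.23 in untreated WT libraries 1 to 3. In both states every DKO library was above every numbered WT library, and in both genotypes every stimulated library was below every untreated one. From the means of the log2 ratios, DKO over WT was 2.44-fold in stimulated cells and 1.64-fold in untreated cells. On the same basis, stimulated over untreated was 0.431-fold in DKO and 0.289-fold in WT. The ratio is a description of transcripts and has no test, and it says nothing of protein levels. Its size also depends on the exonic lengths used.

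**Figure D4:**
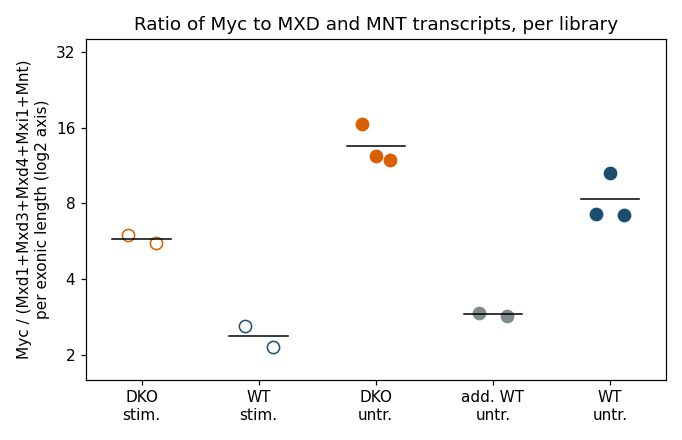
Ratio of Myc to the sum of Mxd1, Mxd3, Mxd4, Mxi1 and Mnt, all in CPM per kilobase of exonic length (vertical, log2 axis), with 1 circle per library, bars at group means, open circles for stimulated cells and filled circles for untreated cells. The 2 stimulated DKO libraries (6.00 and 5.58) lie above the 2 stimulated WT libraries, and all numbered untreated libraries lie above those of the same genotype after stimulation.

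On the scale of CPM per kilobase, used to set genes side by side, Myc led in every group. The scale takes the deposited exonic length, 2717 bases for Myc and 8483 for Mxd4. That length may differ from the length of the transcript made. Its level was 137 ± 26.7 in stimulated DKO libraries, 62.8 ± 5.28 in stimulated WT libraries, 169.7 ± 29.6 in untreated DKO libraries and 129 ± 20.9 in untreated WT libraries (SD, n = 2 for stimulated and 3 for untreated groups). Max came next in all of them, at 32.5 ± 3.77 in stimulated DKO libraries, 28.5 ± 1.898 in stimulated WT libraries, 48.9 ± 3.49 in untreated DKO libraries and 42.1 ± 2.88 in untreated WT libraries. Mlx followed in each of these groups, and its range met that of Mxd4 in stimulated WT libraries alone among the 4 groups.

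Below these, Mnt was above Mxd4 without overlap in both untreated genotypes, at 6.09 ± 0.84 against 2.49 ± 0.20 CPM per kilobase in DKO libraries and 7.32 ± 0.58 against 3.73 ± 0.50 CPM per kilobase in WT libraries. In stimulated WT libraries the order of the pair was turned, with Mxd4 at 13.5 ± 1.97 and Mnt at 6.59 ± 1.02 CPM per kilobase and no overlap. In stimulated DKO libraries the pair overlapped, with Mnt at 7.45 ± 1.08 and Mxd4 at 7.04 ± 0.20 CPM per kilobase. Mxd4 thus made up the most of the antagonist transcripts per length in stimulated WT libraries. Mxd1, Mxd3 and Mxi1 stayed at or below 3.88 CPM per kilobase as group means in these 4 groups. Mxi1 and Mxd3 overlapped in both stimulated groups, and Mxi1 and Mxd1 overlapped in each of these 4 groups but the stimulated DKO group. Mycn was last in every group.

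The genes whose centred log2 CPM profile over the 10 libraries was nearest to that of Myc, among 8788 genes with an average log2 CPM of 3 or more, were Ipo4, Surf2, Traf1, Arv1 and Snhg3. Their root mean square differences from the Myc profile were between 0.0998 and 0.129 on the log2 scale. The 10 libraries fall into 4 groups that share genotype and state, so the likeness is mostly that of group means.

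The additional WT libraries stood apart from the numbered WT libraries for most members. Mxi1 had 72.5 and 61.8 CPM in the additional WT libraries, against 9.02 to 18.3 CPM in the numbered ones, and Mxd4 had 55.4 and 67.5 CPM in the additional WT libraries, against 27.4 to 35.8 CPM in the numbered ones. Myc, at 249.9 and 222 CPM, Max, at 89.1 and 87.7 CPM, and Mlx, at 17.3 and 19.3 CPM, were below all numbered untreated WT libraries, and Mnt, at 55.0 and 40.8 CPM, was above them. Mxd1 and Mxd3 overlapped. The ratio of Myc to its antagonists was 2.95 and 2.86 in the additional WT libraries, against 7.23 to 10.5 in the numbered ones. These libraries come from a table of their own, so their levels were not tested against the rest.

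A list of 38 genes known to be raised by MYC, chosen after earlier results of these data had been seen, was counted beside the members. In stimulated cells 12 of them (31.6%) were higher and 0 were lower in DKO, where 5.09% of all tested genes were higher and 6.17% lower. The median log2 fold change was 0.61 in the list and -0.03 over all tested genes. The smallest p-values belonged to Nop56, a core protein of box C/D ribonucleoproteins, at 1.10 ± 0.20 (adjusted p = 0.0145), Polr1b, a subunit of RNA polymerase I, at 0.94 ± 0.19 (adjusted p = 0.0195), Hspe1, a mitochondrial chaperonin, at 0.90 ± 0.20 (adjusted p = 0.0243), and Npm1, a nucleolar protein of ribosome assembly, at 0.82 ± 0.19 (adjusted p = 0.0307, all edgeR). Nop56 averaged 688 ± 98.8 CPM in stimulated DKO libraries and 311 ± 60.4 CPM in stimulated WT libraries (SD, n = 2 each). The other 8 that rose were Nolc1, Srm, Pa2g4, Nop16, Rrp9, Nop58, Bop1 and Cad, most of them nucleolar proteins of ribosome production.

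In untreated cells 14 of the 38 (36.8%) were higher and 1 (2.63%) was lower in DKO, where 8.81% of all tested genes were higher and 10.6% lower. The median was 0.21 in the list and -0.01 over all tested genes. Hspe1 at 0.52 ± 0.08, Npm1 at 0.43 ± 0.07, Nop56 at 0.40 ± 0.07 and Nop58 at 0.43 ± 0.08 led (adjusted p of 0.00390 to 0.00973, edgeR). The 1 lower gene was Odc1, the first enzyme of polyamine synthesis, at -0.36 ± 0.07 (adjusted p = 0.0111, edgeR). No gene of the list passed in the interaction.

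Between the states, 2 of the 38 (5.26%) were higher and 15 (39.5%) lower in stimulated DKO cells, with a median of -0.29, where 16.2% of all tested genes were higher and 16.8% lower. In stimulated WT cells 2 were higher and 32 (84.2%) lower, with a median of -0.68, where 17.8% of all tested genes were higher and 22.8% lower. The higher pair in each genotype was Eif4a1, a translation initiation helicase, and Odc1. The medians of all tested genes were -0.01 in DKO and -0.02 in WT. Shmt2, a mitochondrial enzyme of 1-carbon metabolism, had the smallest p-value among the lower genes of the list in both genotypes, at -1.46 ± 0.16 in DKO and -1.76 ± 0.16 in WT (adjusted p = 2.5e-05 and 5.7e-06, edgeR). Of the 38 genes, 32 had promoter entries in RefSeq, and 11 of these held the E-box CACGTG. Counted by windows, 14 of 43 held it, or 32.6%, against the 7.15% of all promoters. The genes were listed as known MYC targets and MYC binds this motif, so the share describes the list and not these data.

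Among genes known to be repressed by MYC, the DKO calls went both ways in stimulated cells and were all lower in untreated cells. In stimulated cells 2 of 7 tested were higher and 2 lower in DKO (28.6% each, against 5.09% and 6.17% of all tested genes). Cdkn1a, an inhibitor of cyclin-dependent kinases, was higher at 3.62 ± 0.32 (adjusted p = 0.00115) and Gadd45b, a stress response gene, at 1.81 ± 0.22 (adjusted p = 0.00346), while Ndrg1 was lower at -1.17 ± 0.18 (adjusted p = 0.00781) and Ccng2, a cyclin of resting cells, at -0.85 ± 0.22 (adjusted p = 0.0417, all edgeR). In untreated cells 0 of 8 were higher and 2 (25%) lower, against 8.81% and 10.6% of all tested genes. The lower pair was Ndrg1 at -1.29 ± 0.24 and Cdkn2b, another kinase inhibitor, at -1.11 ± 0.33 (adjusted p = 0.00828 and 0.0468, edgeR). The list median was -0.67 in stimulated and -0.37 in untreated cells. With stimulation, 2 of 8 were higher and 4 lower in DKO cells, where 16.2% of all tested genes were higher and 16.8% lower, and the counts were equal in WT cells, where these shares were 17.8% and 22.8%.

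Among 12 SIN3 and histone deacetylase co-repressors, Hdac2 was higher in stimulated DKO cells at 0.73 ± 0.17 (adjusted p = 0.0292, edgeR) and no other passed, so 8.33% were higher against 5.09% of all tested genes. Hdac2 was also higher in untreated DKO cells at 0.43 ± 0.07 (adjusted p = 0.00560, edgeR), with Rbbp7, a histone-binding subunit, at 0.30 ± 0.06 (adjusted p = 0.0113, edgeR). The 2 of 12 are 16.7%, against 8.81% of all tested genes. After stimulation 3 of 12 were higher and 1 lower in DKO cells, where 16.2% of all tested genes were higher and 16.8% lower, and 2 were higher and 2 lower (16.7% each) in WT cells, where 17.8% were higher and 22.8% lower. As counts these are near the background. Sap18 led both, at 2.48 ± 0.13 in DKO and 1.83 ± 0.13 in WT.

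Among 12 co-activators, Wdr5, a chromatin adaptor that binds MYC, was the only one called, at 0.69 ± 0.18 in stimulated DKO cells (adjusted p = 0.0417, edgeR), and none was called in untreated cells. That 1 of 12 is 8.33%, against 5.09% of all tested genes. After stimulation 1 was higher (8.33%) and 2 were lower (16.7%) in DKO cells, against 16.2% and 16.8% of all tested genes. In WT cells 2 were higher (16.7%) and 4 lower (33.3%), against 17.8% and 22.8%, with the helicase genes Ruvbl1 and Ruvbl2 lower in both genotypes. Among 14 genes that act on MYC protein turnover, Stub1, a ubiquitin ligase, was higher in stimulated DKO cells at 0.78 ± 0.18 (adjusted p = 0.0282, edgeR), or 7.14% of the list against 5.09% of all tested genes. In untreated DKO cells Usp7, a deubiquitinase, at 0.39 ± 0.07 (adjusted p = 0.00628, edgeR), and Stub1, at 0.35 ± 0.09 (adjusted p = 0.0264, edgeR), were among the higher genes of this list, of which 21.4% were higher against 8.81% of all tested genes. Fbxw7, which directs MYC to degradation, was not called in either state.

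Of further partners and regulators, 0 of 6 tested passed in stimulated cells and 1 of 5 in untreated cells, where Mycbp was higher in DKO at 0.33 ± 0.09 (adjusted p = 0.0401, edgeR). With 5 genes, 1 call is near the share of 8.81% higher and 10.6% lower over all tested genes. The 0 of 6 stands against 5.09% higher and 6.17% lower over all genes tested in stimulated cells. Between the states, 1 of 6 was higher and 1 lower in DKO cells (16.7% each), against 16.2% and 16.8% of all tested genes. In WT cells 2 of 6 were higher (33.3%) and 1 lower (16.7%), against 17.8% and 22.8%. After stimulation Mlxip, the MLX partner also called MondoA, was higher in DKO cells at 0.53 ± 0.13 and in WT cells at 0.43 ± 0.13, and Mycbp was lower in DKO cells at -0.46 ± 0.13 and in WT cells at -0.62 ± 0.13. Of 3 arrestin-related genes, which the MLX partner factors are known to control in part, Arrdc3 was lower in DKO in stimulated cells at -1.58 ± 0.23 (adjusted p = 0.00639, edgeR) and in untreated cells at -1.64 ± 0.15 (adjusted p = 0.00130, edgeR). Txnip did not pass in either state, at -0.21 ± 0.20 in stimulated and -0.20 ± 0.10 in untreated cells. For DKO against WT within a state, Arrdc4 was tested in untreated cells alone and did not pass, at 0.90 ± 0.40 (adjusted p = 0.147, edgeR).

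**Figure D5:**
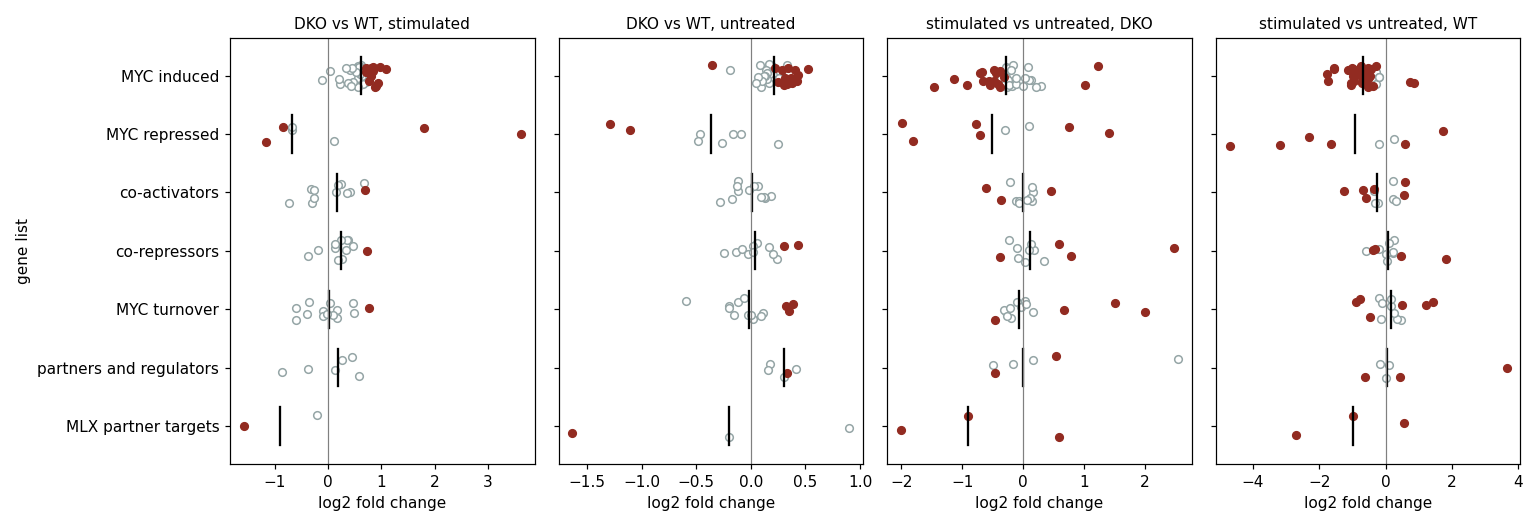
Log2 fold change (horizontal) of each tested gene in 7 lists around the MYC network, in 4 panels for DKO over WT in stimulated and untreated cells and for stimulated over untreated in DKO and WT cells, with filled circles for adjusted p of 0.05 or less in edgeR and a vertical bar at each list's median. The median of the genes known to be raised by MYC lies right of 0 in stimulated DKO over WT (0.61) and left of 0 in stimulated over untreated WT cells (-0.68), with single genes on the other side in each.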

How the data were processed

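Poly(A) RNA of 12 mouse B cell libraries was measured, per the labels. The authors deposited raw counts per Ensembl gene in 3 tables, with other annotation columns that include exonic gene lengths in bases. Per the submitters' processing notes, FastQC 0.10.1, cutadapt 1.9.1, HISAT2 2.2.1 and HTSeq 0.6.1 were used with GRCm39. The strand setting is not given in the sources used here, and overlapping or antisense genes are uncertain. 12 FPKM columns were held and not used. Gene positions of the additional WT table, of an older build, were left aside.

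The members and gene lists were chosen with earlier results of these data known. Named genes were all members, both targeted genes, up to 4 genes of each list with the smallest p in each comparison and the 5 genes nearest to Myc in profile; other genes called in a list of known MYC targets, Fbxw7 and Txnip were named after their values were seen. Some genes of the lists are not reported here. The deposited counts entered two-sided quasi-likelihood tests of edgeR 4.0.16 (R 4.3.3) after TMM scaling and filterByExpr at 10 counts, with at least 15 in total, and p-values were adjusted by Benjamini-Hochberg over all tested genes. DKO was compared with WT in fits of 6 untreated and 4 stimulated libraries. The interaction and the comparisons of states used 1 fit over 10 libraries and 4 groups. The SE is the absolute log2 fold change over the square root of F. CPM levels carry the TMM factors of the 10 libraries, or of all 12 for the additional WT libraries. The pipeline was tested on simulated counts.

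Alternatives were other scaling, DESeq2 1.42.0, no filter or a filter at 1 CPM, omitting single libraries, a block for the replicate number, 1 fit over 10 libraries, the additional WT libraries as WT, and a term for sex. The untreated libraries share replicate numbers across genotypes, but the deviations of same-numbered libraries correlated at -0.35, -0.35 and 0.14, so the numbers were not treated as pairs. Deviations within so few libraries cannot exclude shared animals or days.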

Additional observations from a re-analysis of the deposited data

Results flagged for a closer look

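Cdkn1a, listed among genes known to be repressed by MYC, had a DKO effect that differed between stimulated and untreated cells, by 3.93 ± 0.38 on the log2 scale (adjusted p = 0.00250, edgeR interaction). It averaged 23.3 ± 8.37 CPM in stimulated DKO libraries and 1.80 ± 0.55 CPM in stimulated WT libraries (SD, n = 2 each), and 39.7 ± 9.19 CPM in untreated DKO libraries and 47.4 ± 5.64 CPM in untreated WT libraries (SD, n = 3 each). This call held in each of the alternatives run, with adjusted p up to 0.0332 (edgeR, replicate block). Gadd45b, of the same list, differed likewise by 1.59 ± 0.24 (adjusted p = 0.0252, edgeR interaction). It averaged 59.2 ± 15.6 CPM in stimulated DKO libraries and 16.3 ± 3.17 CPM in stimulated WT libraries, and 97.1 ± 13.5 CPM in untreated DKO libraries and 80.8 ± 1.92 CPM in untreated WT libraries. The Gadd45b call was lost without untreated WT library 1 or 3, untreated DKO library 2 or 3, stimulated DKO library 1, stimulated WT library 1 or the unnumbered WT library (adjusted p of 0.0598 to 0.182, edgeR), with the replicate block (adjusted p = 0.127, edgeR) and with the additional WT libraries as WT (adjusted p = 0.724, edgeR).

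The additional WT libraries, which entered a fit only as an alternative WT group, had a mean Mxi1 level 4.76-fold and a mean Mxd4 level 1.94-fold that of the numbered untreated WT libraries. They also had the highest summed myeloid markers, and summed T cell markers of 124 to 130.04 CPM, against 74.0 to 97.8 CPM in the numbered untreated WT libraries. The T cell markers Cd3e and Cd8a had no counts in the additional WT libraries. The part of these in the difference was not tested.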

How the results depend on the processing

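In untreated cells 2638 genes passed for DKO against WT, against 786 with a replicate block, 319 with the additional WT libraries as WT, 4392 with a term for sex and 923 to 2779 on leaving out a library. Members past the threshold there were 1, against 2 with DESeq2, 3 with no low-count filter, 0 with the additional WT libraries, 4 with the sex term and 0 to 2 on leaving out a library. In stimulated cells 1625 genes passed, against 2847 with no filter, 3429 in 1 fit over 10 libraries and 576 to 5977 on leaving out a library, with 1 to 4 members. The interaction called 21 genes, against 174 with DESeq2, 491 with no filter (3 members), 1 with the replicate block, 2 with the additional WT libraries, and 1 to 1244 on leaving out a library, with 0 to 1 members. For stimulated against untreated WT cells 6097 genes and 5 members passed, against 2862 and 2 with the replicate block (Max, adjusted p = 0.0503, Mxd3, 0.0753, and Mlx, 0.227, were lost, edgeR), 2437 and 3 with the additional WT libraries, and 3557 to 7031 genes on leaving out a library.

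Members that did not pass turned direction as follows. With the replicate block, the Mxd1 interaction was 0.11 and Mxi1 in WT cells -0.28. With the additional WT libraries, Mlx in untreated cells was 0.29, the Mxd4 and Mlx interactions 0.068 and -0.25, and Mxi1 in WT cells -1.15. On leaving out a library, DKO against WT in stimulated cells spanned -0.12 to 0.22 for Mlx, -0.016 to 0.29 for Mnt and -0.42 to 0.10 for Mxd1, and in untreated cells -0.053 to 0.13 for Mxd1 and -0.45 to 0.020 for Mxi1. The interaction spanned -0.14 to 0.095 for Max, -0.036 to 0.34 for Mlx and -0.45 to 0.086 for Mxd1, and stimulated against untreated WT cells -0.41 to 0.11 for Mxd1 and -0.25 to 0.46 for Mxi1. The log2 ratio of Myc to its antagonists was 1.46 for DKO over WT in stimulated cells without division by length, and without Mnt -1.64 in DKO and -2.29 in WT for stimulated over untreated cells. The cause of these shifts was not tested.

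Whether replicate numbers mark pairs is not stated in the labels. The stimulated groups share fewer than 2 numbers among their count columns, so their comparison had no block fit. Counting each member in each comparison and alternative, 289 of 320 values kept direction and side of the threshold on leaving out a library (16 reversed) and 274 of 296 under other alternatives (6 reversed). Leaving out a stimulated library leaves 1 library in its group, which is assumed to vary like the others. Low counts limit Mxd3 in untreated cells and Mycn in all.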
